A study of Homo sapiens with 10 samples.

Results

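BRG1 with a working ATPase was set against BRG1 with a dead ATPase in human C33A cells, a cervical carcinoma line that the study describes as lacking SWI/SNF activity. The comparison rests on 4 of the 10 libraries of the series, 2 of BRG1-wt (plasmid pBJ5-BRG1) and 2 of BRG1-mut (plasmid pBJ5-BRG1-K798R, which carries the substitution K798R). All cells were transiently transfected with Lipofectamin 2000 for 48 h, and polyadenylated RNA was sequenced after priming with oligo-dT. The 2 control libraries came from cells given pOPRSVI, which is not the empty form of pBJ5, so an effect of the plasmid backbone cannot be told apart from an effect of BRG1 against control. Between BRG1-wt and BRG1-mut the backbone and the cDNA are shared. The other 4 libraries, BRM-wt (pCG-hBrm) and BRM-mut (pCG-hBrm-K798R), are given only beside a result. Nothing in the labels says that the replicates are separate cultures, so the spread between them may be technical.

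The members were chosen by group and not by value. For splicing, an exon event belonged to the comparison when it was listed in both the BRG1-wt and the BRG1-mut table of a replicate, which held for 259 events in replicate 1 and 97 in replicate 2. Together these were 343 events of the 1799 listed in any BRG1 table and the 3102 listed in any table of the series, and 13 of them had a value in all 4 libraries. For expression, 11948 of 63152 gene identifiers were compared.

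BRG1 is the ATPase of SWI/SNF complexes, which use ATP to move or evict nucleosomes and so open promoters and enhancers to transcription factors. A substitution in the ATP binding site leaves a protein that can still enter complexes but cannot remodel chromatin. A contrast of the wild type with this mutant asks which effects of BRG1 need ATP hydrolysis and which are seen with the protein alone. SWI/SNF proteins are also found with RNA polymerase and splicing factors on genes, where the choice to include or skip an exon is made while the RNA is still being transcribed.

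The level of a gene is given as its base mean, a count divided by a size factor for library depth and averaged by the authors over 2 libraries of a group and the 2 control libraries. No value per library and no spread was used, so base means carry no error and no test. Because the tables of BRG1-wt and BRG1-mut hold the same control libraries, the ratio of their base means understates the fold between the groups and is given as "at least". A gene was called when this ratio was at least 1.41-fold (0.5 on the log2 scale) in either direction, with a mean base mean of at least 100. By this rule 150 genes were higher in the table of BRG1-wt (1.26% of genes compared) and 432 were higher in that of BRG1-mut (3.62%). In bulk RNA, more cells expressing a gene and more RNA per cell cannot be told apart.

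The labels were first set against SMARCA4, which encodes BRG1. SMARCA4 (ENSG00000127616) lies on chromosome 19 of GRCh37, from 11071608 to 11190102. Its base mean was 25802 with BRG1-wt and 29824 with BRG1-mut, whereas the BRM tables, which hold no BRG1 plasmid, had 3864 and 3076. SMARCA4 was thus high in both BRG1 groups, at least 1.18-fold higher with the mutant (log2 ratio -0.24, not called). The study reports a similar mRNA level by qPCR, but slightly more BRG1 protein from the wild type than from the mutant. An effect of protein dose cannot be told apart from an effect of ATPase activity. RNA from the plasmid and from the gene itself cannot be told apart. Of the markers fixed for C33A, CDKN2A (1976 and 2129) and RB1 (2283 and 2099) were high in the 2 tables, KRT8 and KRT18 were present, and EPCAM was low (base mean 30.2 with BRG1-mut and less with BRG1-wt). Among markers of fibroblasts and of blood and endothelium, COL3A1 (4017 and 3829) and PTPRC (1606 and 1529) were high in both tables, and DCN and LUM stayed below 40. CD3E and HBB were listed at 0, and PECAM1 was not matched. None of these markers other than KRT8 and KRT18 was called between BRG1-wt and BRG1-mut.

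**Figure D1:**
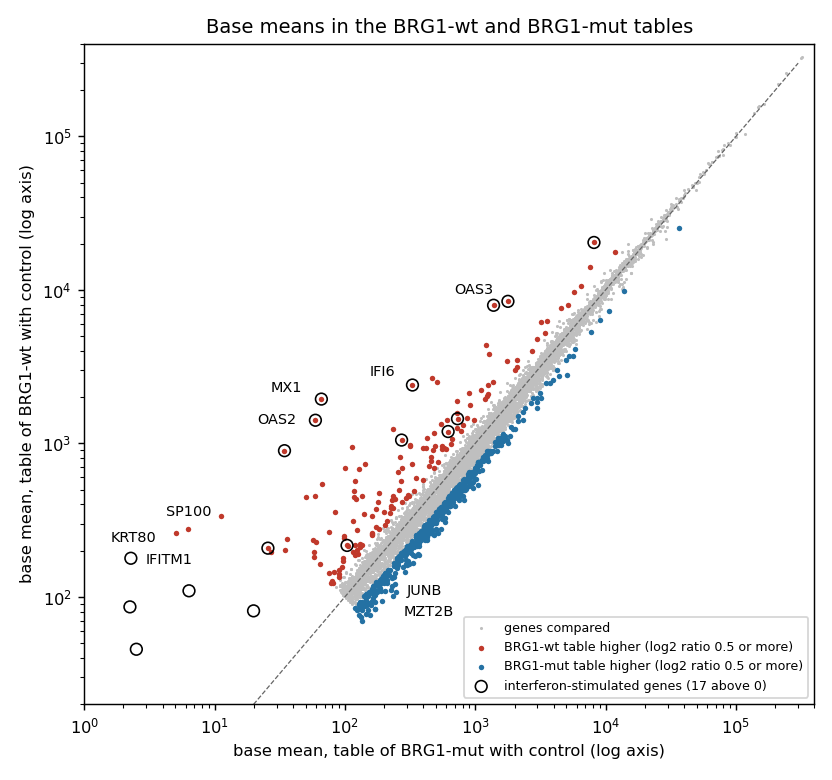
Base means of 11948 genes in the table of BRG1-mut with control (x axis, log scale) and of BRG1-wt with control (y axis, log scale), with called genes in red and blue and the 17 interferon-stimulated genes above 0 circled. The circled genes all lie above the diagonal, among them OAS3 at 8419 against 1780 and IFITM1 at 178 against 2.28, whereas the blue genes form a narrow band below it.

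The largest ratios towards BRG1-wt were those of genes that interferons induce. Interferons are signalling proteins that cells release on viral infection. They act through receptors and JAK kinases on factors such as STAT2 and IRF9, which bind promoters at a sequence called the interferon-stimulated response element (ISRE) and switch on antiviral genes. Of 18 interferon-stimulated genes listed, IRF7 was at 0 in both tables. The other 17 were all past the ratio towards BRG1-wt, with a median log2 ratio of 2.84. With no filter on low values, 3002 of 27235 genes (11%) were past the ratio in this direction. Of the 18, 12 passed the filter, 4 of them only through the table of BRG1-wt. All 12 were called, against 1.26% of genes compared, with a median log2 ratio of 2.35 against 0 over all genes compared. The 5 others above 0 had base means of at most 178. The list was drawn up when earlier results of these data were known, so its direction is a description.

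Among effectors, MX1, a GTPase that traps viral particles (ENSG00000157601, GRCh37 chromosome 21 from 42791947 to 42841998), had a base mean of 1943 with BRG1-wt and 66.0 with BRG1-mut. The mean of the BRG1-wt libraries therefore lay between 3749 and 3812 normalised counts, that of BRG1-mut was at most 132 and that of control at most 62.4. This is at least 28.9-fold more MX1 RNA with BRG1-wt. OAS1, OAS2 and OAS3 make a second messenger that activates RNA degradation by RNase L. With BRG1-wt their base means were 896, 1414 and 8419, and with BRG1-mut they were 34.4, 59.4 and 1780, at least 25.6, 23.4 and 4.64-fold apart. All members of this enzyme family in the list were far higher with the wild type.

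The IFIT proteins bind viral RNA without a normal cap. IFIT1 had base means of 7937 and 1381, IFIT3 of 1050 and 272, and IFIT2 of 1447 and 731 in the tables of BRG1-wt and BRG1-mut, at least 5.64, 3.79 and 1.94-fold apart. The 3 genes lie close together on chromosome 10, and their least folds were not alike. The ubiquitin-like modifier ISG15 had base means of 1194 and 619, at least 1.89-fold apart, the smallest ratio in the list (log2 0.92). IFI6, a mitochondrial protein that counters apoptosis, had 2399 and 330 (at least 7.14-fold), and IFI27 had 208 and 25.7 (at least 7.94-fold). IFITM1 and IFITM3, membrane proteins that block viral entry, had 178 and 109 in the table of BRG1-wt against 2.28 and 6.36. These genes are near copies of each other and reads may have been split between them. Neither passed the filter, nor did BST2 (86.0 against 2.24), which tethers budding virus.

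Upstream of these genes the differences were smaller. STAT2 had base means of 3445 and 1750 (at least 1.93-fold) and IRF9 of 216 and 104 (at least 2.04-fold). The receptors IFNAR1 (3864 and 3785), IFNAR2, IFNGR1, IFNGR2, IFNLR1 and IL10RB and the kinases JAK1, JAK2 and TYK2 were not called. Of 11 receptor and signalling genes, 2 were higher in the table of BRG1-wt, STAT2 and IRF1. Sensors of foreign RNA, which are themselves interferon-stimulated, were also higher. RIGI (ENSG00000107201, chromosome 9 from 32455300 to 32526206) had 4371 and 1212 (at least 3.54-fold), IFIH1, which encodes MDA5, had 447 and 118 (at least 3.72-fold), and DHX58 had 237 and 36.1 (at least 6.45-fold). Their adaptor MAVS (978 and 1102) and the kinase TBK1 (3536 and 3380) were not called. Interferon genes themselves were near 0, and none of 6 listed passed the filter on low values. Those above 0 in both tables numbered 3, and all 3 were past the ratio towards BRG1-wt, as were 11% of genes with no filter. IFNB1 had base means of 8.92 and 0.953, IFNL1 of 2.31 and 0, and IFNA1 was listed at 0. The lists of receptors, sensors and ligands were added after values had been seen.

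The 12 genes with the largest ratios towards BRG1-wt were KRT80, SP100, XAF1, MX1, OAS1, OAS2, S100A16, DDX60L, CMPK2, IFI27, CPA4 and IFI6. KRT80, a keratin (ENSG00000167767, chromosome 12 from 52562780 to 52585798), stood highest, with base means of 261 and 5.05 (at least 50.8-fold). The mean of the 2 BRG1-wt libraries was at least 508, and those of BRG1-mut and control were at most 10.1 and 5.29. SP100, a component of nuclear bodies, had 278 and 6.21 (at least 43.8-fold), and XAF1, an inducer of apoptosis, had 334 and 11.2 (at least 29.4-fold). DDX60L, a helicase relative with antiviral activity, had 950 and 113, and CMPK2, a mitochondrial nucleotide kinase, had 540 and 66.6. Not all 12 genes are known as interferon targets. S100A16, a calcium-binding protein, had 448 and 50.3 (at least 8.75-fold), and CPA4, a carboxypeptidase, had 455 and 58.9 (at least 7.58-fold).

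Promoter sequences are shown because many of the interferon-stimulated genes share a motif there. In the RefSeq promoters of GRCh38.p14, from 250 bases before to 50 after the start, the core of the ISRE was searched on both strands as GAAA, any 2 bases, and GAAA again. It was in 12 of the 14 promoters found for the interferon-stimulated genes (85.7%), in 31 of 108 for all genes higher in the table of BRG1-wt (28.7%) and in 8 of 339 for those higher with BRG1-mut (2.36%). The share was 3.61% of 8965 promoters of genes compared and 4.38% of 27305 promoters in all. The search string overlaps runs of A, and it was also in 5 of 22 promoters of splicing regulators (22.7%). A match is a description and not a bound site. Below are the 120 bases before the start, 5′ to 3′ on the strand of the gene, with the matches in capitals.
DDX60L, chr4:168480493-168480612, minus strand of GRCh38.p14: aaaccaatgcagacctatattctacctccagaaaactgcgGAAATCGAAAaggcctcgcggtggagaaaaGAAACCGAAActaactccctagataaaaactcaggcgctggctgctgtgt
IFI27, chr14:94110616-94110735, plus strand of GRCh38.p14: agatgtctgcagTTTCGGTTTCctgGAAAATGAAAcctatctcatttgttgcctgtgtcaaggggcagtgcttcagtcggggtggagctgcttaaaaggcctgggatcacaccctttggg
IFI6, chr1:27672193-27672312, minus strand of GRCh38.p14: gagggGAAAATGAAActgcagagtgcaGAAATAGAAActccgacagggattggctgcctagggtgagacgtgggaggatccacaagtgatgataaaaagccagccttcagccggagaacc
IFIT1, chr10:89392503-89392622, plus strand of GRCh38.p14: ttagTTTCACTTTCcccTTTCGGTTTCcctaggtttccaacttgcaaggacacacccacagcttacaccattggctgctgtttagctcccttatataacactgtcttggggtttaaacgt
ISG15, chr1:1013377-1013496, plus strand of GRCh38.p14: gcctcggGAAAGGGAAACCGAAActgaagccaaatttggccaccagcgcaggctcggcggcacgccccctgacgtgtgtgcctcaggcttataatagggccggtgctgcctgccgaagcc
In these 5 promoters 2 matches each lay within the stretch, and in ISG15 the matches overlap. The site of AP-1, TGANTCA, was in 9 of the same 108 promoters (8.33%), against 6.18% of genes compared. For single genes only the first promoter entry was read, over the 250 bases before the start. In it, MX1, OAS1, SP100, XAF1, S100A16, CMPK2, CPA4 and IRF9 held no match to the ISRE letters. The counts above took every entry of a gene and also the 50 bases after the start. A gene without a match here may therefore be counted there as having the motif. KRT80 and OAS2 had no entry in the promoter table.

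Beyond the interferon response, genes of the cytoskeleton and the cell surface were called in smaller numbers. Among 17 keratin and epithelial genes, 5 passed the filter and 3 were higher in the table of BRG1-wt. These were KRT80, which passed only through the table of BRG1-wt, and the partner keratins of simple epithelia, KRT8 (456 and 134, at least 3.33-fold) and KRT18 (696 and 272, at least 2.51-fold). Both have many pseudogene copies, between which reads may have been split. The epithelial cadherin gene CDH1 was at 6.27 and 3.05, and VIM, the intermediate filament of mesenchymal cells, was not called (12049 and 11103). Among 16 annexin and S100 genes, 12 passed and 4 were higher, 3 of them passing only through the table of BRG1-wt. They were S100A16, S100A4 (228 and 60.0, at least 3.73-fold), S100A2 (389 and 225, at least 1.69-fold) and ANXA3 (202 and 34.9, at least 5.67-fold), whereas ANXA1, ANXA2 and ANXA5 differed by less than 1.41-fold.

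Genes of the extracellular matrix and adhesion went both ways. Of 24, 20 passed, 3 were higher with BRG1-wt and 4 with BRG1-mut, with a median log2 ratio of 0.01. Among those higher with BRG1-wt, the laminin chain gene LAMB1 had 336 and 161 (at least 2.05-fold) and TIMP3 had 188 and 119 (at least 1.55-fold). SPARC (184 and 6.18) and CD44 (126 and 8.38) were further apart, at least 29.3 and 14.8-fold, but did not pass the filter. Higher with BRG1-mut were the collagen genes COL6A2 (157 and 278) and COL6A1 (91.8 and 143), LAMA5 (888 and 1465) and ITGB4 (118 and 182). The exonic GC content of these 4 genes lay between 64.0% and 65.8%.

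**Figure D2:**
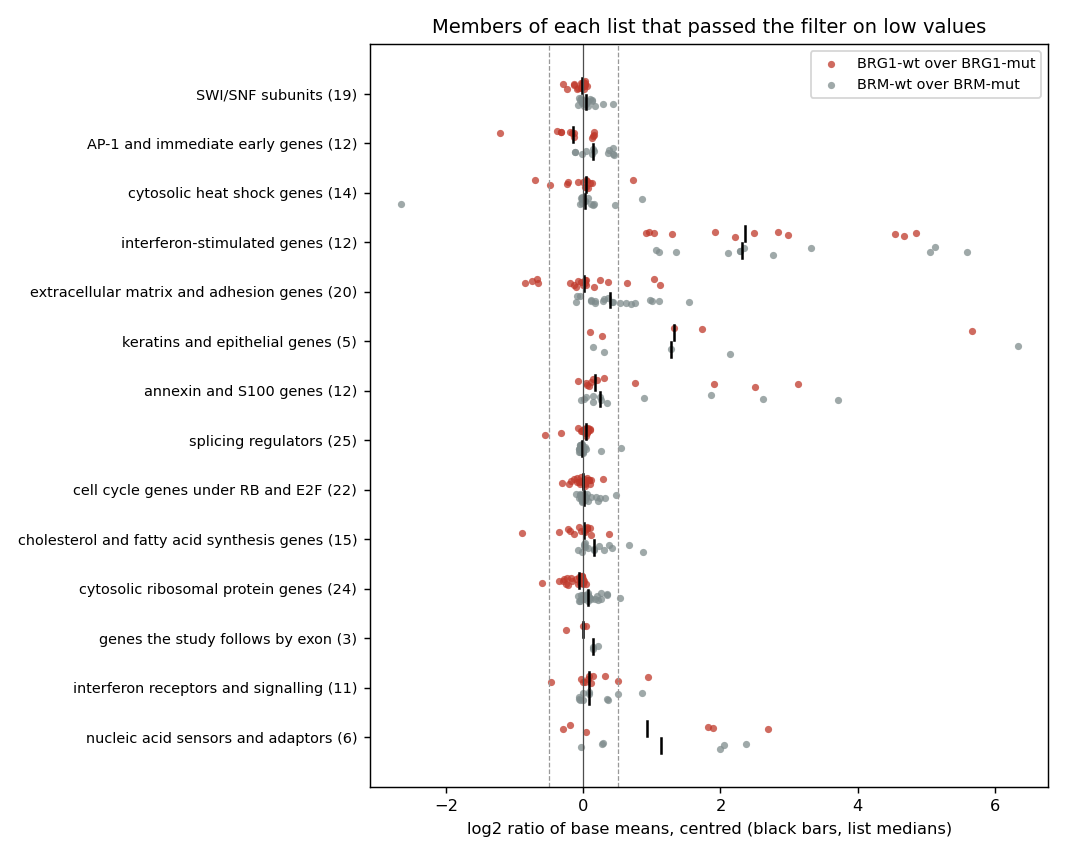
Log2 ratio of base means, wild type over mutant, for the members of each list that passed the filter (number in brackets), for BRG1 in red and for BRM in grey, with list medians as black bars and the called ratio as broken lines. The interferon-stimulated genes lie between 0.92 and 4.85 for BRG1, while the splicing regulators, SWI/SNF subunits and cell cycle genes stay within 0.60 of 0.

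The lists that stayed near 0 hold the housekeeping and proliferation programmes of the cells. None of 22 cell cycle genes under RB and E2F was called (median log2 ratio -0.01), and CCND1 (1737 and 1403) and MCM5 (2402 and 2921) lay farthest from 0. None of 19 SWI/SNF subunits was called. BICRA (306 and 368) lay farthest, and core subunits such as SMARCB1 (3083 and 3197) and SMARCC1 (14951 and 14678) lay close to 0. Of 25 splicing regulators 1 was called, XAB2 (575 and 834, at least 1.48-fold higher with BRG1-mut), and the median log2 ratio was 0.03. HNRNPA1, SRSF1, SRSF3 and SF3B1 were all within 0.11 of 0, and PTBP1 had 11185 and 13777. In 24 genes of cytosolic ribosomal proteins the median was -0.06 and RPS15 was called (1056 and 1571), followed by RPS9 (5960 and 7464). Of 15 genes of cholesterol and fatty acid synthesis, FASN, the fatty acid synthase, was called (2799 and 5088, at least 1.85-fold higher with BRG1-mut).

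Immediate early and stress genes showed isolated members. Of 12 AP-1 and immediate early genes that passed, only JUNB, a subunit of the AP-1 factor, was called, with base means of 108 and 246 (at least 2.32-fold higher with BRG1-mut). FOS (440 and 486), JUN (986 and 1059) and IER2 (1278 and 1633) were not. Of 14 heat shock genes, the inducible HSPA6 was higher in the table of BRG1-wt (151 and 89.5, at least 1.65-fold) and the small chaperone HSPB1 in that of BRG1-mut (369 and 592, at least 1.64-fold). The ratio of HSPA6 for BRM was the other way, with 21.8 for BRM-wt and 149 for BRM-mut.

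The 432 genes higher with BRG1-mut were of another kind. Their ratios were small, with a median log2 ratio of -0.62 and 12 genes beyond -1, whereas 65 of the 150 genes on the other side were beyond 1. The filter bears on this, since 34 of the 150 had a base mean under 100 with BRG1-mut, among them 10 of the 12 largest, and 32 of the 432 had one under 100 with BRG1-wt. The 12 largest were MZT2B, a subunit of the complex that nucleates microtubules (101 and 234, at least 2.37-fold, chromosome 2 from 130939310 to 130948302), JUNB, ZNF358, MCRIP2, ENSG00000243679, FNDC10, ABHD8, LRP3, NDUFB7, MRPL41, MPG and ATP5F1D. Of these, NDUFB7 (259 and 519) and ATP5F1D (275 and 545) are subunits of the respiratory chain and the ATP synthase, MRPL41 (145 and 289) is a protein of the mitochondrial ribosome and MPG (167 and 331) is a DNA glycosylase. The least folds of these 12 genes lay between 2.02 and 2.37. For MZT2B the mean of control was at most 126, that of BRG1-wt lay between 71.0 and 197 and that of BRG1-mut between 341 and 467. For KRT80, on the other side, control was at most 5.29. The shared control libraries pull a ratio towards 1 more strongly where the control level is high. The sizes of the ratios on either side can therefore not be compared directly.

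The genes higher with BRG1-mut were rich in G and C. Their exonic GC content had a median of 63.7% (quartiles 61.6% and 65.4%), against 46.9% for all genes compared and 46.8% for the genes higher with BRG1-wt. In the fifth of genes with the highest GC content, from 56.4% to 73.8%, 413 genes were higher with BRG1-mut and 21 with BRG1-wt, and the median log2 ratio was -0.27. In the fifth with the lowest GC content the counts were 0 and 11 and the median was 0.05. Over 11721 genes, which share their libraries, Spearman's rho between GC content and log2 ratio was -0.66. When the median of genes with like GC content was subtracted, 29 of the 432 genes and 143 of the 150 stayed past the ratio. MZT2B, JUNB, MPG and MCRIP2 were among the 29, and FASN, HSPB1, XAB2, RPS15 and the 4 matrix genes were not. The rest of the 12 largest fell out as well, namely ZNF358, ENSG00000243679, FNDC10, ABHD8, LRP3, NDUFB7, MRPL41 and ATP5F1D. The part of GC content in these differences was not tested.

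**Figure D3:**
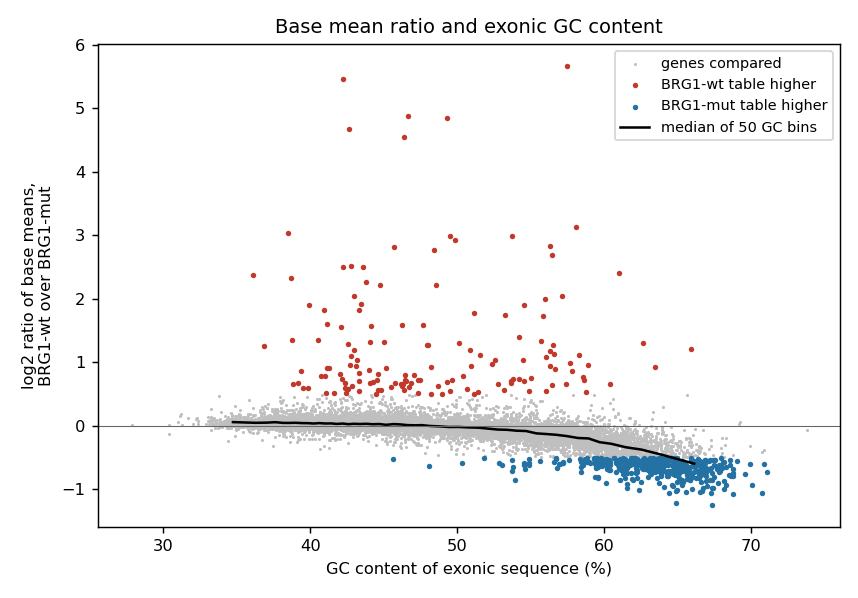
Log2 ratio of base means, BRG1-wt over BRG1-mut, against the GC content of exonic sequence for 11721 genes, with called genes in colour and the median of 50 bins of GC content as a line. Genes higher with BRG1-mut gather at high GC content, where the line falls below 0, and genes higher with BRG1-wt are spread along the axis.

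The same genes are given for BRM beside BRG1, with the reservation that all tables hold the same control libraries. The 12 interferon-stimulated genes that passed had a median log2 ratio of 2.35 for BRG1 and 2.31 for BRM. MX1 had base means of 1491 with BRM-wt and 33.2 with BRM-mut, KRT80 had 210 and 2.81, and IFI6 had 1461 and 158. ISG15 had 714 and 152, at least 5.06-fold for BRM against at least 1.89-fold for BRG1. The 432 genes higher with BRG1-mut had a median log2 ratio of -0.62 for BRG1 and 0.55 for BRM, so that for BRM the wild type was the higher side, and Spearman's rho between GC content and the ratio of BRM was 0.67. For MZT2B the base means were 131 with BRM-wt and 67.1 with BRM-mut. For JUNB they were 105 and 83.8. No test of the difference between BRG1 and BRM could be made from pooled means.

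Splicing was measured as the PSI (percent spliced in, here on a scale of 0 to 1). An event has an upstream, a middle and a downstream exon. Its PSI is the share that keeps the middle exon among transcripts joining the outer exons with or without it. This is not a share of all transcripts of the gene. The PSI had been estimated with MISO in each library. A table lists only events whose Bayes factor exceeds 10 when set against the control of equal number, and the tables do not give the reads behind a PSI. Replicate 1 had 631 events for BRG1-wt and 723 for BRG1-mut, and replicate 2 had 396 and 632. The shared events were 41.0% of the BRG1-wt list and 35.8% of the BRG1-mut list in replicate 1, and 24.5% and 15.3% in replicate 2. Since listing depends on the Bayes factor against control, an event missing from a list is not shown to be unlike. Nor is a listed event always far from control. In replicate 2 an event of RPLP1 was listed for BRG1-wt at 0.39 against 0.43 in control.

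Within a replicate, where an exon was listed for both proteins, its PSI was most often close. In replicate 1 the median difference was 0 and the median absolute difference 0.04, whereas the PSI stood 0.25 (BRG1-wt) and 0.32 (BRG1-mut) from control in the median. In replicate 2 the median absolute difference was 0.03, with 0.29 and 0.28 from control. Of the shared events, 177 of 259 (68.3%) and 76 of 97 (78.4%) were less than 0.1 apart. In replicate 1, 162 events were above control with both proteins, 94 below with both and 3 on opposite sides. In replicate 2 the numbers were 55, 41 and 1. Since both lists require distance from the same control library, likeness between them is in part fixed by the listing. Across replicate numbers, and so across control libraries, BRG1-wt replicate 1 and BRG1-mut replicate 2 differed by a median of 0.18 over 101 events (45.5% at 0.2 or more), and BRG1-wt replicate 2 and BRG1-mut replicate 1 by 0.05 over 45 events (17.8%). Replicates of one group differed by a median of 0.08, for BRG1-wt (57 events, 24.6% at 0.2 or more) as for BRG1-mut (145 events, 18.6%). For 227 events with a value in both controls, the control libraries differed by a median of 0.12, and 72 of them (31.7%) by 0.2 or more.

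**Figure D4:**
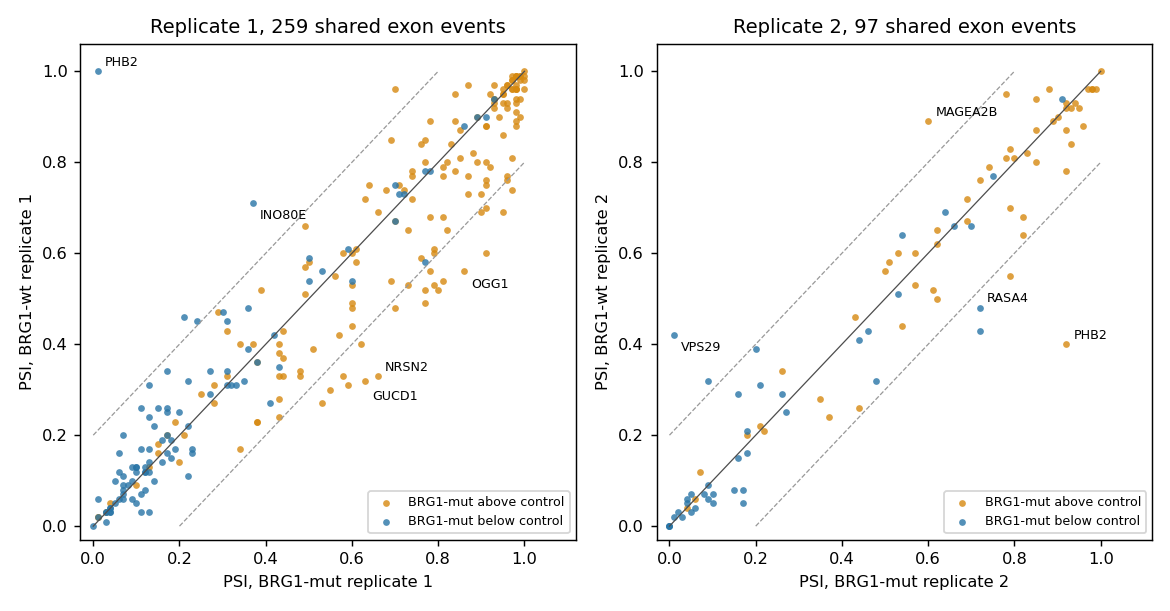
PSI in BRG1-mut (x axis) and BRG1-wt (y axis) for shared exon events of replicate 1 (left, 259 events) and replicate 2 (right, 97 events), coloured by whether BRG1-mut was above or below control, with broken lines 0.2 from the diagonal. In replicate 1, 22 events lie past the lower line and 5 past the upper line, and in replicate 2 the numbers are 4 and 3.

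A difference of 0.2 or more was found in 27 events of replicate 1 (10.4%) and 7 of replicate 2 (7.22%). In replicate 1, 22 of them (8.49% of shared events) had the higher PSI in BRG1-mut and 5 (1.93%) in BRG1-wt. All 22 had the same order, with control lowest, BRG1-wt between and BRG1-mut highest, at medians of 0.255, 0.525 and 0.775. In replicate 2, 4 events (4.12%) were higher in BRG1-mut and 3 (3.09%) in BRG1-wt. These are counts of 1 library against 1 library and have no test.

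The 22 events could be followed in replicate 2. Of them, 15 were listed for BRG1-mut in replicate 2, and all 15 were above control there. All 15 also had a higher PSI in control replicate 2 than in control replicate 1. Their medians were 0.24 in control replicate 1 and 0.60 in control replicate 2, 0.49 in BRG1-wt replicate 1, and 0.73 and 0.86 in BRG1-mut. BRG1-wt in replicate 1 was thus below control in replicate 2 in the median. Only 3 of the 22 were listed in both tables of replicate 2, 2 of PYCR1 and 1 of YTHDF1, and in these BRG1-mut was again higher.

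These exons were GC-rich and mostly coding. The 21 exons of the 22 events had GC contents between 56.3% and 65.6% (median 61.8%), and 17 were wholly coding. All 22 events lay above control, and the shared events above control in replicate 1 had a median GC content of 60.6%, against 49.1% for those below, so a high GC content was not particular to the 22. With a difference of 0.1 or more, the 55 exons higher in BRG1-mut in replicate 1 had a median GC content of 62.2%, against 54.0% for the 174 exons less than 0.1 apart and 50.0% for the 25 higher in BRG1-wt. Of these sets 69.1%, 51.7% and 28.0% were wholly coding. The sets mix events above and below control. In replicate 2 the medians were 58.7% (13 exons), 51.1% (75) and 51.8% (8). The direction was that of the genes, which had higher base means with BRG1-mut where GC content was high. The part of GC content in the PSI differences was not tested.

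In replicate 1 NRSN2, GUCD1 and OGG1 were among the largest differences towards BRG1-mut. Exon 4 of OGG1, which encodes a glycosylase that removes oxidised guanine from DNA (chr3:9796388-9796569, 182 bases, coding), had a PSI of 0.25 in control, 0.56 in BRG1-wt and 0.86 in BRG1-mut. In the same order, exon 5 of GUCD1 (chr22:24939810-24940051) had 0.14, 0.32 and 0.63, and exon 4 of NRSN2 (chr20:330282-330476) had 0.16, 0.33 and 0.66. In each, the PSI of BRG1-wt lay between control and BRG1-mut. The base means of these 3 genes differed by less than 1.41-fold between the tables.

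The exons are shown from GRCh37 on the strand of the gene, with exon bases in capitals between 20 intronic bases on each side, because these carry the differences in inclusion and illustrate their GC content. GUCD1 and OGG1 are from replicate 1, PYCR1 from both replicates, and GADD45A is an exon that the study followed.
GUCD1 exon 5, chr22:24939810-24940051, minus strand of GRCh37: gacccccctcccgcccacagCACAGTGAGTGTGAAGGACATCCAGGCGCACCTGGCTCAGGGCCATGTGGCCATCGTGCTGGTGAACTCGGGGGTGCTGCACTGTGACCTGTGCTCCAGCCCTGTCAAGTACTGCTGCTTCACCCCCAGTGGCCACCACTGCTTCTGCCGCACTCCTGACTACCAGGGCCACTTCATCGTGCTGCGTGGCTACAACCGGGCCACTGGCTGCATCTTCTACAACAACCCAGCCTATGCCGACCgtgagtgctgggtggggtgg
OGG1 exon 4, chr3:9796388-9796569, plus strand of GRCh37: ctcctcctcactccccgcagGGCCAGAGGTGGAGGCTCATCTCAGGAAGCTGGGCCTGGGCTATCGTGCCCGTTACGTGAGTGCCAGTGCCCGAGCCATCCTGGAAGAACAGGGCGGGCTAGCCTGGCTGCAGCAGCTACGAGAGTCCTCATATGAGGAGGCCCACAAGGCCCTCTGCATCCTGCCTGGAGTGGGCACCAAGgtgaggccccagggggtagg
PYCR1 exon 6, chr17:79892202-79892365, minus strand of GRCh37: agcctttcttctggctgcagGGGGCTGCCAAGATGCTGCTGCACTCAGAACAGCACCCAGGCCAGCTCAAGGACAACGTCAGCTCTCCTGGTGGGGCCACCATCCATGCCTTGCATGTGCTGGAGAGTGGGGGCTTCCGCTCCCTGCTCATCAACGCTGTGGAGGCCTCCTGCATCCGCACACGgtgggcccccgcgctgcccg
GADD45A exon 2, chr1:68151708-68151809, plus strand of GRCh37: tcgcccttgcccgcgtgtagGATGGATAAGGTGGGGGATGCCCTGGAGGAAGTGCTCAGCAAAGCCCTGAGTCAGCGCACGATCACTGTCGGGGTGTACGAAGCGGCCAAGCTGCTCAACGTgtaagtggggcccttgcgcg
The GC contents of these 4 exons are 61.6%, 63.7%, 63.4% and 59.8%, and each has AG before and GT after it.

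The 13 events with a PSI in all 4 libraries allowed a test against the spread between replicates. By limma, none of the 13 passed an adjusted p of 0.05 (0%) and none had an unadjusted p under 0.05. With 2 libraries a group, the 95% intervals of the differences were wide. The groups did not overlap in 5 of the 13 (38.5%), with BRG1-wt higher in 1 (7.69%) and BRG1-mut in 4 (30.8%). In 4 of the 5 (30.8% of the 13) the means were at least 0.1 apart.

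PYCR1, which makes proline in mitochondria, had its exon 6 (chr17:79892202-79892365, 164 bases, coding) in 2 overlapping events. In the first, the PSI was 0.31 and 0.50 in BRG1-wt and 0.59 and 0.62 in BRG1-mut, against 0.13 and 0.38 in control. BRG1-wt lay 0.20 below BRG1-mut (standard error 0.0831, 95% interval -0.457 to 0.0567, limma adjusted p = 0.417). The difference was -0.105 without BRG1-wt replicate 1 and -0.295 without BRG1-wt replicate 2 (limma unadjusted p = 0.0229, adjusted p = 0.193). In the second event the values were 0.33 and 0.52, and 0.58 and 0.61. The 2 events share their middle exon and are not independent. In both, each BRG1-mut library was above each BRG1-wt library, and the 2 BRG1-wt libraries stood further apart than the 2 of BRG1-mut.

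YTHDF1, a reader of methylated adenosine in mRNA, had the same direction. The PSI of its exon 4 (chr20:61833639-61835159, 1521 bases, coding) was 0.53 and 0.68 in BRG1-wt, 0.73 and 0.82 in BRG1-mut and 0.41 and 0.61 in control. The difference was -0.17 (standard error 0.0768, 95% interval -0.407 to 0.0672, limma adjusted p = 0.417), and -0.095 without BRG1-wt replicate 1. In ACTB, the gene of beta-actin, the groups stood side by side, with 0.31 and 0.28 in BRG1-wt and 0.32 and 0.35 in BRG1-mut.

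RPLP1, a protein of the ribosomal stalk, was the only event of the 13 in which both BRG1-wt libraries lay above both BRG1-mut libraries. The middle part of the event is 1641 bases long (chr15:69745986-69747626) and is exon 2 of an annotated transcript. Its PSI was 0.45 and 0.39 in BRG1-wt and 0.31 and 0.20 in BRG1-mut, with 0.89 and 0.43 in control (difference 0.165, standard error 0.0595, 95% interval -0.0189 to 0.349, limma adjusted p = 0.417). The base mean of RPLP1, read after this event was seen, was 3707 with BRG1-wt and 5648 with BRG1-mut, at least 1.55-fold higher with BRG1-mut. Its log2 ratio was -0.64, and -0.63 after genes of like GC content were subtracted.

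**Figure D5:**
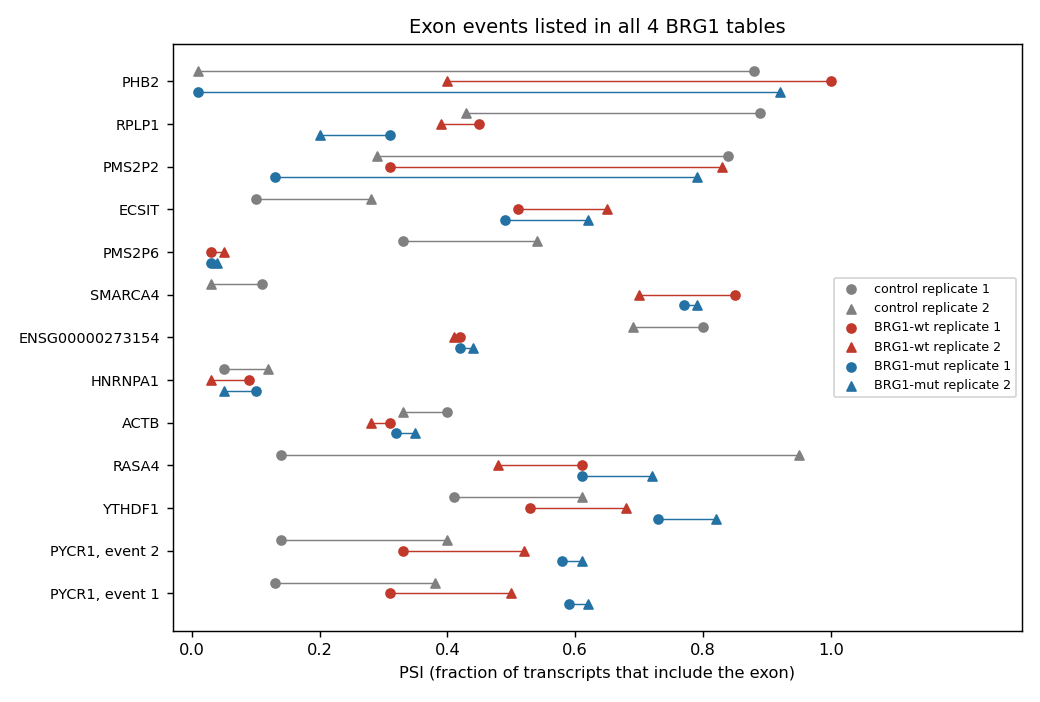
PSI of the 13 exon events listed in all 4 BRG1 tables (x axis, from 0 to 1) in control (grey), BRG1-wt (red) and BRG1-mut (blue), with circles for replicate 1 and triangles for replicate 2, ordered by the mean difference. BRG1-wt and BRG1-mut lie near each other and away from control for SMARCA4, ECSIT and PMS2P6, whereas they are apart for both PYCR1 events, YTHDF1 and RPLP1.

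Several exons stood far from control at like values with both proteins. Exon 27 of SMARCA4 itself (chr19:11144443-11144541, 99 bases, coding) had a PSI of 0.11 and 0.03 in control, 0.85 and 0.70 in BRG1-wt and 0.77 and 0.79 in BRG1-mut. The mean difference was -0.005 (95% interval -0.216 to 0.206, limma adjusted p = 0.946). Both plasmids encode BRG1, and reads of their transcripts cannot be told apart from those of the gene. In PMS2P6, a pseudogene of the mismatch repair gene PMS2 with several close copies, exon 5 (chr7:72514920-72515008) had 0.33 and 0.54 in control, 0.03 and 0.05 in BRG1-wt and 0.03 and 0.04 in BRG1-mut. Reads of such copies may be misassigned. In ECSIT, an adaptor of immune signalling and of respiratory chain assembly, exon 2 (chr19:11629890-11630008) had 0.10 and 0.28 in control, 0.51 and 0.65 in BRG1-wt and 0.49 and 0.62 in BRG1-mut. An exon of ENSG00000273154 had 0.80 and 0.69 in control, 0.42 and 0.41 in BRG1-wt and 0.42 and 0.44 in BRG1-mut. Another exon of SMARCA4, of 96 bases (chr19:11150134-11150229), was listed only in replicate 2 and had 0.07 in control and 0 in both BRG1 libraries.

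In some events the difference between proteins, or the side of control on which they lay, was not alike in the 2 replicates. The 6 bases of exon 9 of PHB2, a prohibitin of the inner mitochondrial membrane (chr12:7075074-7075079), had a PSI of 1.00 and 0.40 in BRG1-wt, 0.01 and 0.92 in BRG1-mut and 0.88 and 0.01 in control. This event held the largest difference towards BRG1-wt in replicate 1 and the largest towards BRG1-mut in replicate 2. In PMS2P2, another pseudogene of this family, the values were 0.31 and 0.83, 0.13 and 0.79, and 0.84 and 0.29. In RASA4, a regulator of Ras with near-identical copies, exon 17 had 0.61 and 0.48 in BRG1-wt and 0.61 and 0.72 in BRG1-mut. Control had 0.14 and 0.95, so both proteins lay above control in replicate 1 and below it in replicate 2. HNRNPA1 had 2 events. At exon 10, listed in all 4 libraries, the PSI was 0.09 and 0.03 in BRG1-wt and 0.10 and 0.05 in BRG1-mut, against 0.05 and 0.12 in control. At exon 3 in replicate 1 it was 0.46 in BRG1-wt and 0.21 in BRG1-mut, against 0.30 in control. In replicate 2 exon 3 was listed only for BRG1-mut, at 0.18 against 0.27 in control.

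The other large differences towards BRG1-wt were of single replicates. In replicate 1 they were INO80E, a subunit of another remodelling complex (0.71 and 0.37), and BRCC3, a deubiquitinase (0.96 and 0.70, exon of 17 bases). In replicate 2 they were VPS29, part of the retromer (0.42 and 0.01, exon of 12 bases), MAGEA2B (0.89 and 0.60, a gene with near copies), and CCDC88C (0.32 and 0.09), beside RPLP1. Towards BRG1-mut in replicate 2 they were, beside PHB2 and RASA4, an exon in no annotated gene at chr5:69492705-69492797 (0.43 and 0.72) and an exon of ENSG00000241489 (0.55 and 0.79). VPS29 and BRCC3, as PHB2, have very short middle exons.

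The genes that the study followed by exon differed little in level between the tables, with base means of 5113 and 4887 for MYL6, 2197 and 2159 for GADD45A and 4149 and 4830 for MAZ. Exon 6 of MYL6, a myosin light chain (chr12:56554410-56554454, 45 bases), had a PSI of 0.07 in control, 0.13 in BRG1-wt and 0.13 in BRG1-mut in replicate 1, and of 0.10 in control and 0.14 in BRG1-wt in replicate 2. Exon 2 of GADD45A, a stress-induced gene of growth arrest (chr1:68151708-68151809, 102 bases), had 0.08, 0.17 and 0.34 in replicate 1, and 0.19 in control and 0.42 in BRG1-mut in replicate 2. Exon 3 of GADD45A was listed only for BRG1-mut, in 2 events, with 0.17 in control and 0.38 in BRG1-mut in replicate 1 and 0.27 and 0.52 in replicate 2 for the event found in both. Exon 5 of MAZ, a zinc finger factor, was listed only for BRG1-mut too, with 0.08 in control and 0.13 and 0.15 in BRG1-mut. By qPCR, the study reports significantly more inclusion of this MAZ exon with the wild type, but no significant increase with the mutant. Its listing only for BRG1-mut therefore does not show an effect particular to the mutant. MYL6 was thus alike with both proteins where both were listed, and the PSI of GADD45A exon 2 was higher in BRG1-mut in replicate 1. For this GADD45A exon, the study reports more inclusion than in control by qPCR with both the wild type and the mutant.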

How the data were processed

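RNA of C33A cells was sequenced, and per the labels and methods the authors mapped reads with TopHat2 2.0.4 to GRCh37, kept duplicates, counted genes with HTSeq 0.6.1 and compared groups with control in DESeq2. The base mean in the deposited tables, handled here as a score, was made by the authors as a mean of normalised counts over 2 libraries of a group and 2 of control. The PSI in the deposited tables is a fraction that the authors estimated with MISO per library. The remaining columns hold the authors' own fold changes, standard errors and p-values, or Bayes factors, and were not used, nor was a second copy of the BRG1-wt table. Values per library of gene counts were not used, the reads behind each value are unknown, and the strand used in counting is not given in the sources used here.

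From these files the log2 ratio of base means (BRG1-wt over BRG1-mut) was centred on its median over genes with a mean base mean of at least 100, and the PSI of events listed in all 4 tables was tested with limma 3.58.1 in R 4.3.3, without robust fitting, with Benjamini-Hochberg adjustment over 13 events. Other steps used Python 3.11.15, and the code was tested on simulated data. Of 63152 gene identifiers 55139 were matched to a symbol, and of the lists ACACA and PECAM1 were not found. GC content is that of exonic sequence in GRCh37. Named were the 12 genes with the largest ratio in each direction, SMARCA4, and in each list the 2 members farthest from 0 and any past 0.5. Named exons were those without overlap over 4 libraries (6 in each direction), 3 alike but 0.3 or more from control, the 4 largest differences per replicate and direction, and any in SMARCA4, MYL6, GADD45A or MAZ. Other names were chosen after their values were seen. Some genes that the rule names are not reported here. The members and lists were chosen with earlier results of these data known. Alternatives were other thresholds, filters and centring, a correction for GC content, a logit scale, a replicate block and leaving out each library.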

Additional observations from a re-analysis of the deposited data

How the results depend on the processing

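The deposited values set the limits: base means have no spread and include the control libraries, and reads per event are unknown. By limma, 0 of 13 exon events passed an adjusted p of 0.05 with a replicate block, on a logit scale, with each exon once and without each library. At an unadjusted p under 0.05 there were 2 with the replicate block (RPLP1, 95% interval 0.0305 to 0.2995, and YTHDF1, -0.312 to -0.0284) and 2 without BRG1-wt replicate 2 (both of PYCR1). The labels give only a shared number, so libraries were not taken as pairs. Deviations of same-numbered libraries had r = -0.21 over 13 events, which rests on PHB2, since r was 0.79 over the other 12, a value computed after seeing the data. In 8 of the 13 they went the same way. With the pairing crossed, an alternative chosen after seeing the data, 0 passed (1 unadjusted). Without each library in turn the difference ranged from -0.045 to 0.015 for HNRNPA1 exon 10, from -0.22 to 0.69 for PHB2, from -0.08 to 0.07 for SMARCA4 exon 27, from -0.045 to 0.095 for ECSIT, from -0.005 to 0.015 for PMS2P6 and from -0.22 to 0.44 for PMS2P2, so these 6 turned sign. It ranged from -0.295 to -0.105 and from -0.265 to -0.075 for the events of PYCR1, from -0.245 to -0.095 for YTHDF1 and from 0.11 to 0.22 for RPLP1. On the logit scale SMARCA4 was at 0.0351. Exons with means at least 0.1 apart and the same direction within each replicate number (replicate block) were 5, and those with that direction at any size were 8. Exons apart without overlap were 1 with a mean difference of at least 0.2. Shared events past the difference were 82 and 21 (replicates 1 and 2) at 0.1, and 6 and 2 at 0.3. Against the BRG1-mut library of the other number they were 46 of 101 for replicate 1 (45.5%) and 8 of 45 for replicate 2 (17.8%). The cause was not tested. Genes higher with BRG1-wt numbered 450 at a base mean of at least 10, 39 at 1000, 3002 without a filter and 65 at a log2 ratio of 1. Those higher with BRG1-mut numbered 713, 67, 2873 and 12. With genes of like GC content subtracted they were 167 and 29. Of 66 named genes, 16 were then no longer past 0.5, all of them on the side of BRG1-mut. Uncentred, the counts were 161 and 381. The count of interferon-stimulated genes was 17 at a base mean of at least 10, 6 at 1000 and 12 after the GC correction.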
